A study of Mus musculus with 24 samples.

Results

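Cathepsins are the proteases of the lysosome, and the 10 cathepsin genes described here (Ctsa, Ctsb, Ctsc, Ctsd, Ctsf, Ctsh, Ctsk, Ctsl, Ctss and Ctsz) were taken by gene name from a table of 40141 mouse genes. All 10 passed the filter on low counts, which left 24623 genes for testing. Whole aorta was sequenced from wild type mice and from mice that carry the cthrc1-/- genotype, that is without Cthrc1, a secreted protein of injured arteries. Either genotype was given PBS, a salt buffer, as the control, or Ang-II/BAPN, angiotensin II with β-aminopropionitrile, an inhibitor of the enzymes that cross-link elastin and collagen, which together serve as a model of aortic dissection. Each genotype and treatment had 6 libraries, 3 with titles that start with F (the F set) and 3 without (the plain set), and the labels used here say neither what F stands for nor the age, strain, dose or duration. Whether the libraries came from separate animals is not stated, and the spread behind each p-value may therefore be a technical one.

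Most cathepsins are cysteine proteases of the papain family. They are made as inactive precursors, are carried to the lysosome by the mannose 6-phosphate receptors, and become active there in acid. Ctsd is instead an aspartic protease, and Ctsa a serine carboxypeptidase that also protects other lysosomal enzymes. Macrophages, smooth muscle cells and fibroblasts can release cathepsins, and cathepsins S, K and L are known for cutting elastin and collagen, the load-bearing fibres of the aortic wall.

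Promoter windows of RefSeq (build GRCm38.p6, 250 bases before to 50 after a gene's start) were held for 8 of the 10 genes. The 5 windows below belong to the 3 genes with the largest rise under Ang-II/BAPN (Ctss, Ctsc and Ctsk), to the most abundant member (Ctsd) and to the member that fell (Ctsf). Capitals mark an E-box (CACGTG), a PU.1 site (GAGGAAGT), a GC box (GGGCGG) or a TATA box (TATAAA), each searched on both strands, and all other bases are in lower case.
Ctss (chr3:95526536-95526835, plus strand): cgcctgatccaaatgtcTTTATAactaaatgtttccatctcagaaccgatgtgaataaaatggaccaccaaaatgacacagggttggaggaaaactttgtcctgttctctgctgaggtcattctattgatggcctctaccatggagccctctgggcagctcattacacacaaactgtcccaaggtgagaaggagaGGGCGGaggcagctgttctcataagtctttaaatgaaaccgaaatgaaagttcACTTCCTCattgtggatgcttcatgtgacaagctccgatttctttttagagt
Ctsc (chr7:88277835-88278134, plus strand): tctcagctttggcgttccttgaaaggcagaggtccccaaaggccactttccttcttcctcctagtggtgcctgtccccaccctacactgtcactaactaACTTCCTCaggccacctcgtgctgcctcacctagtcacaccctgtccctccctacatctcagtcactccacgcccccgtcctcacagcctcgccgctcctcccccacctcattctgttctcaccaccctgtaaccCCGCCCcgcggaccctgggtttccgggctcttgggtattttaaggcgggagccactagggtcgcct
Ctsk (chr3:95498960-95499259, plus strand): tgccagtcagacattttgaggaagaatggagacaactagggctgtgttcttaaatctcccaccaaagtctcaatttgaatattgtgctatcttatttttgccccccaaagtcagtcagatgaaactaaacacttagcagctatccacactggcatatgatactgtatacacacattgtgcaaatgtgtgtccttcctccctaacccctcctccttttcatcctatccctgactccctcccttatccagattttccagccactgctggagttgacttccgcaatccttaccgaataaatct
Ctsd (chr7:142387778-142388077, minus strand): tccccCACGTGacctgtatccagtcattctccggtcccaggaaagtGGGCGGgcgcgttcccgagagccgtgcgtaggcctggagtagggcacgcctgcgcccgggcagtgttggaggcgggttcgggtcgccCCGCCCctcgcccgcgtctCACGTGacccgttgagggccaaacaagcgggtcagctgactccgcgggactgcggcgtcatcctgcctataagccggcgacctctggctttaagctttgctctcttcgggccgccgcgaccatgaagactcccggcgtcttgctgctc
Ctsf (chr19:4854915-4855214, plus strand): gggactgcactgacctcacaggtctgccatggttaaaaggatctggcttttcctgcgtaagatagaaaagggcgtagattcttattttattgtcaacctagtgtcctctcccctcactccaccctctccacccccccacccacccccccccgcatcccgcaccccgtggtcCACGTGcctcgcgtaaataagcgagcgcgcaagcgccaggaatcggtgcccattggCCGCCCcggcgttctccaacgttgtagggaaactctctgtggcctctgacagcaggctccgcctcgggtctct

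The E-box letters, the core of the element that lysosomal genes share, were in 4 of the members' 9 windows (of Ctsa, Ctsd, Ctsf and Ctsl). Of all 32851 windows, 7.15% held them. For Ctsa they were in the window chr2:164833523-164833822 and not in that at its annotated start. That Ctsa window and the Ctsd window held them at 2 places each. The longer CLEAR element of lysosomal genes, searched as an E-box with GT before it and AC after it, was in none of the members' windows and in 0.326% of all windows. Only these exact letters were searched, and windows with a near match, such as that of Ctsd, were not counted. PU.1, a transcription factor of myeloid cells, has its letters in 3.2% of all windows, and among the members in those of Ctsc and Ctss. The Ctss match began 2 bases before the annotated start and ran across it, and the Ctsc match began 151 bases before the start. GC content of the members' windows ran from 43.7% (Ctsk) to 67.3% (Ctsd), beside a median of 52.7% over all windows. GC box letters were in 5 of the members' 9 windows against 35.7% of all windows. TATA box letters were in that of Ctss alone, at position -233 from the start, against 13.6%, and AP-1 letters (TGACTCA) in none against 5.2%. The Ctsk window held none of the motifs searched. These matches describe the letters of the windows and say nothing about binding.

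Libraries held 39002048 to 82040703 counts, and a member had between 283 and 225711 counts in a library, so that the spread between libraries rather than depth set the precision. Levels are in CPM, counts scaled to a common library size, and a gene was called at an adjusted p under 0.05 in edgeR's quasi-likelihood test with Benjamini-Hochberg adjustment over all tested genes. The targeted gene Cthrc1 lay between 1.52 and 2.47 CPM in wild type and 0.165 and 0.547 CPM in knockout aorta under PBS, and between 26.5 and 112 CPM against 1.79 and 10.5 CPM under Ang-II/BAPN. The genotypes did not overlap in either treatment, although treated knockout aorta held more Cthrc1 counts than untreated wild type aorta by the median (4.56 against 1.71 CPM). Smooth muscle markers defined the tissue, with a summed level of 17000 to 36000 CPM in the 12 PBS libraries. Some libraries stood apart. Summed kidney tubule markers were over 500 CPM in 7 libraries, the small nuclear RNA Rn7sk over 4 CPM in 5, and intestinal markers over 50 CPM in 4, all of these 4 from treated wild type aorta. F set replicate 1 of treated wild type aorta had the highest level of 9 of the 10 cathepsins in its group, and F set replicate 1 of treated knockout aorta that of 6.

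Under Ang-II/BAPN, 6 cathepsin genes rose in wild type aorta (Ctss, Ctsc, Ctsk, Ctsl, Ctsb and Ctsh) and 1 fell (Ctsf), where 13.3% of all tested genes were called higher, 11.5% lower and 24.8% either way. In knockout aorta 5 rose (Ctss, Ctsc, Ctsk, Ctsl and Ctsb) and none was called lower, against 7.03% of all genes called higher, 4.4% lower and 11.4% either way. The median log2 fold change of the 10 members was 0.79 in wild type and 0.65 in knockout aorta, beside 0.01 and -0.03 over all tested genes. For Ctsb, Ctsc, Ctsk, Ctsl and Ctss, all 6 treated libraries lay above all 6 PBS libraries in both genotypes. Such a separation upward was seen in 6.94% of all genes in wild type and 4.69% in knockout aorta, and downward in 5.14% and 2.21%.

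**Figure D1:**
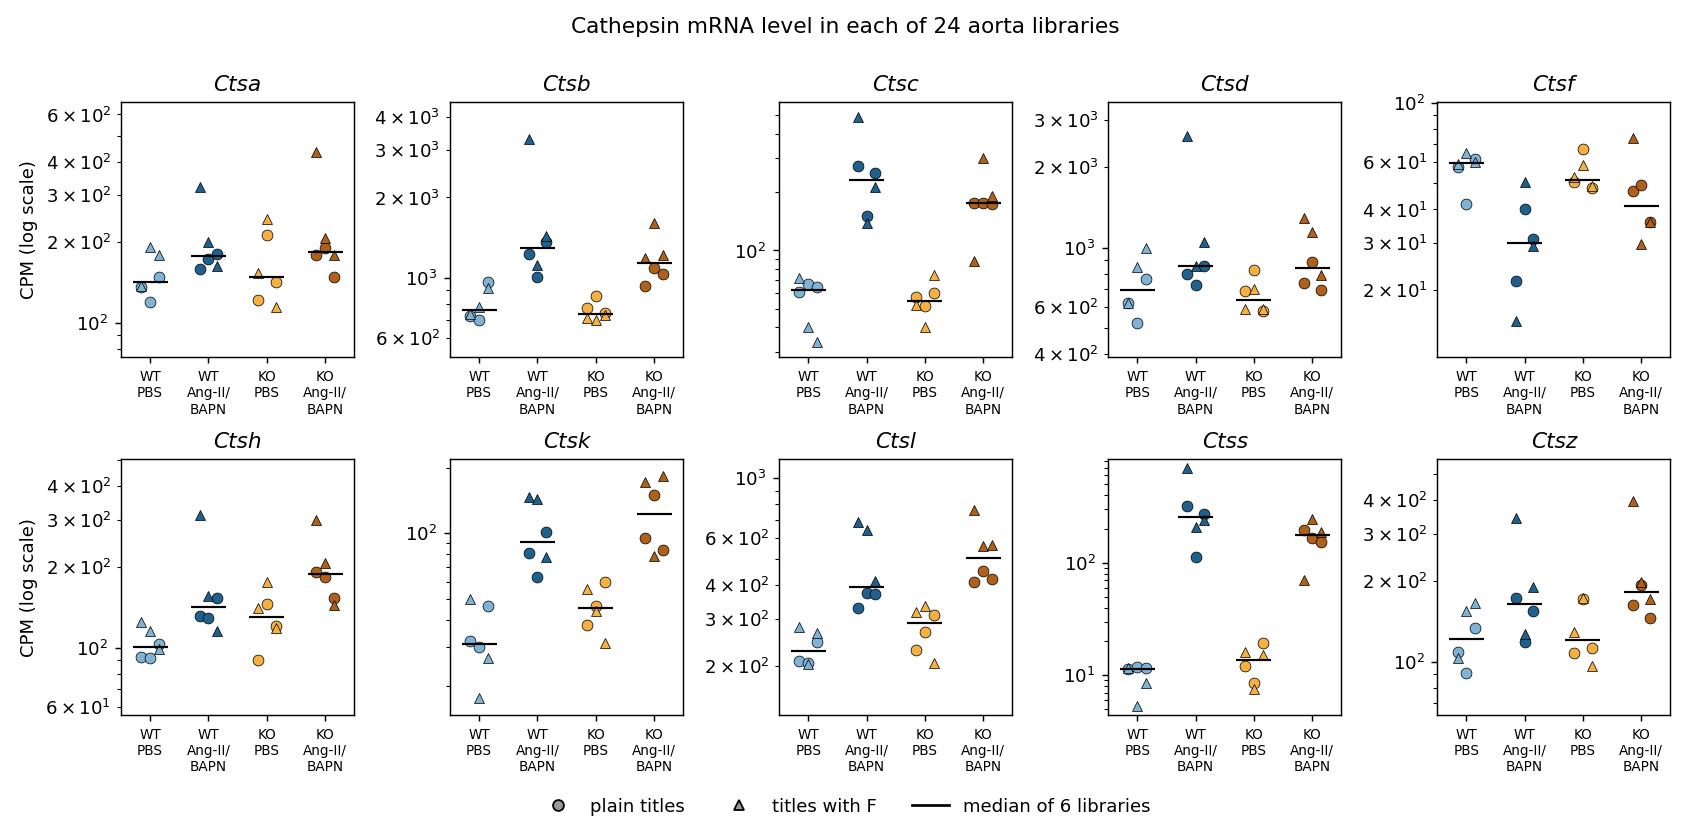
Level of each cathepsin gene in CPM (log axis) in the 24 libraries, by genotype and treatment, with circles for plain titles, triangles for titles with F and a line at the median of 6 libraries. Treated libraries lie above all PBS libraries of their genotype for Ctsb, Ctsc, Ctsk, Ctsl and Ctss, and the scale of the Ctss panel runs from 5.31 to 693 CPM.

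Ctss encodes cathepsin S, an elastin-cutting protease of antigen-presenting cells that stays active at neutral pH and trims the invariant chain of MHC class II. In wild type aorta its lowest, median and highest levels were 5.31, 11.5 and 11.8 CPM under PBS and 113, 254 and 693 CPM under Ang-II/BAPN. In knockout aorta they were 7.49, 13.7 and 19.5 CPM under PBS and 69.9, 178 and 244 CPM under treatment. Every treated library of either genotype was thus above every PBS library, and the treated wild type libraries were spread most widely. The log2 fold change was 4.90 (SE 0.41, adjusted p = 5.99e-07, edgeR) in wild type and 3.69 (SE 0.39, adjusted p = 1.38e-05, edgeR) in knockout aorta, or 29.9-fold and 12.9-fold. Without F set replicate 1 of treated wild type aorta, the wild type value was 4.52. The gene lies at chr3:95526786-95556403 on the plus strand (GRCm38, from the deposited table), and a pseudogene, Hmgb1-ps5, overlaps it on the same strand.

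Ctsk starts the same stretch of chromosome 3, at chr3:95499256-95509362 on the plus strand, and ends 17423 bases before Ctss begins. Cathepsin K is the collagen-degrading protease of osteoclasts and is also made by activated fibroblasts. Wild type levels were 17.6, 31.1 and 49.9 CPM (lowest, median and highest) under PBS and 62.8, 91.3 and 147 CPM under Ang-II/BAPN. Knockout levels were 31.4, 45.2 and 59.6 CPM under PBS and 78.5, 122 and 182 CPM under treatment. Treated and PBS libraries did not overlap in either genotype. The rise was 1.57 on the log2 scale (SE 0.27, adjusted p = 0.000342, edgeR) in wild type and 1.46 (SE 0.27, adjusted p = 0.00147, edgeR) in knockout aorta. In folds these rises are 2.97 and 2.75, beside 29.9 and 12.9 for the neighbouring Ctss.

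Ctsl encodes cathepsin L, a broad lysosomal endopeptidase that also degrades elastin (chr13:64359337-64370890, minus strand). It ranged over 203, 227 and 280 CPM in wild type PBS libraries and 328, 394 and 689 CPM in treated ones. The knockout values were 205, 289 and 335 CPM against 410, 506 and 761 CPM. All treated libraries were above all PBS libraries in each genotype, with the highest levels in the F set. Changes of 0.96 (SE 0.16, adjusted p = 0.00018, edgeR) in wild type and 0.90 (SE 0.16, adjusted p = 0.000738, edgeR) in knockout aorta are close to a doubling, 1.95-fold and 1.87-fold.

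Ctsc encodes dipeptidyl peptidase I, which activates the serine proteases of neutrophils and other leukocytes (chr7:88278085-88310888, plus strand). Wild type aorta held 33.6, 62.8 and 72.0 CPM under PBS and 138, 232 and 490 CPM under Ang-II/BAPN. Knockout aorta held 40.1, 54.6 and 74.9 CPM under PBS and 88.1, 175 and 302 CPM under treatment. The groups of each genotype did not overlap, and the lowest treated knockout library was F set replicate 1, which was also the lowest for Ctss. Ctsc rose 4.5-fold in wild type (log2 fold change 2.17, SE 0.31, adjusted p = 4.45e-05, edgeR) and 3.28-fold in knockout aorta (1.72, SE 0.31, adjusted p = 0.00089, edgeR).

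Cathepsin B, the product of Ctsb, cuts both within proteins and dipeptides from their ends (chr14:63122462-63145923, plus strand). Its levels in wild type aorta were 697, 758 and 965 CPM under PBS and 1010, 1290 and 3310 CPM under treatment. In knockout aorta they were 698, 735 and 861 CPM under PBS and 938, 1140 and 1610 CPM under treatment. Treated libraries were again all above PBS libraries, and F set replicate 1 of treated wild type aorta was more than double the next. The log2 fold change was 0.93 (SE 0.20, adjusted p = 0.00251, edgeR) in wild type and 0.64 (SE 0.20, adjusted p = 0.0478, edgeR) in knockout aorta. The knockout call was lost in 30 of 39 alternative analyses, with adjusted p-values from 0.00327 to 0.716. Fdft1 overlaps Ctsb on the opposite strand, and whether the authors' counting used strand is not given in the sources used here, so that reads of the 2 genes cannot be told apart. The same holds for Ctsa with Pltp and Neurl2 and for Ctsz with Nelfcd, and predicted genes overlap Ctsd (Gm49369) and Ctsl (Gm49230) on their own strand.

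The aminopeptidase cathepsin H, encoded by Ctsh (chr9:90054152-90076089, plus strand), is involved in surfactant processing in the lung. Its wild type levels were 91.6, 101 and 125 CPM under PBS and 115, 142 and 313 CPM under Ang-II/BAPN. Of the 6 treated libraries, 5 lay above all PBS libraries. The change was 0.65 on the log2 scale (SE 0.21, adjusted p = 0.0299, edgeR), and without F set replicate 1 of treated wild type aorta it was 0.40 with an adjusted p of 0.117 (edgeR). Knockout levels were 90.3, 131 and 176 CPM under PBS and 144, 187 and 299 CPM under treatment. These groups overlapped, with a log2 fold change of 0.57 (SE 0.21, adjusted p = 0.0902, edgeR) that was not called.

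Ctsd, Ctsz and Ctsa passed the threshold in neither genotype. Cathepsin D (Ctsd, chr7:142375911-142388038, minus strand) held 525, 694 and 1000 CPM in wild type PBS libraries and 724, 855 and 2600 CPM in treated ones, a log2 fold change of 0.59 (SE 0.23, adjusted p = 0.0629, edgeR). Only 2 of the 6 treated libraries were above every PBS library, and without F set replicate 1 of treated wild type aorta the value was 0.26. In knockout aorta the Ctsd change was 0.46 (SE 0.23, adjusted p = 0.216, edgeR). The carboxypeptidase gene Ctsz (chr2:174427493-174439039, minus strand) had medians of 121 and 164 CPM in wild type and 121 and 182 CPM in knockout aorta, with log2 fold changes of 0.53 (SE 0.25) and 0.65 (SE 0.25). Ctsa (chr2:164832873-164840019, plus strand) had medians of 142 and 178 CPM in wild type and 148 and 185 CPM in knockout aorta, with changes of 0.39 (SE 0.23) and 0.40 (SE 0.23). For these 3 genes the treated and PBS libraries overlapped in both genotypes. With limma on log2(FPKM + 1), all 3 were called higher in wild type aorta.

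Ctsf, the gene of cathepsin F, moved the other way (chr19:4855130-4860918, plus strand). Cathepsin F is a lysosomal cysteine protease with a long propeptide. Wild type levels were 42.1, 59.5 and 64.9 CPM under PBS and 15.3, 30.1 and 50.8 CPM under Ang-II/BAPN. Of the 6 treated libraries, 5 were below all PBS libraries, and the lowest was F set replicate 1. The log2 fold change was -0.87 (SE 0.25, adjusted p = 0.0151, edgeR), and the call was lost in 7 of 39 alternative analyses, among them that without F set replicate 2 of wild type PBS aorta (-0.83, adjusted p = 0.0509, edgeR). Knockout levels of 48.0, 51.7 and 67.2 CPM under PBS and 29.7, 41.3 and 74.1 CPM under treatment overlapped, with a change of -0.26 (SE 0.25, adjusted p = 0.601, edgeR).

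**Figure D2:**
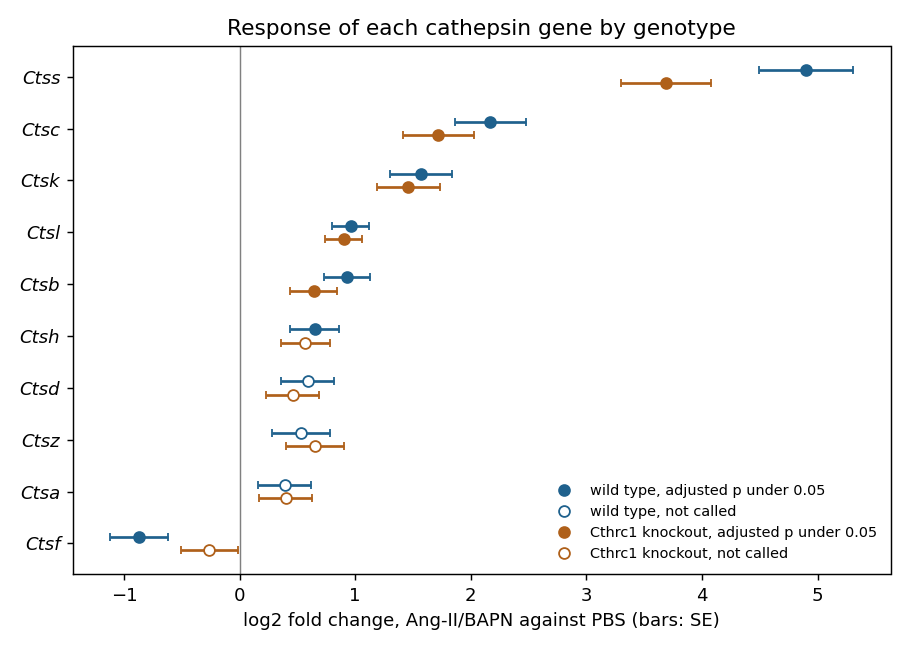
Log2 fold change of each cathepsin gene, Ang-II/BAPN against PBS, in wild type (blue) and Cthrc1 knockout aorta (brown), with bars for the standard error and filled points for an adjusted p under 0.05. Ctss is farthest to the right in both genotypes (4.90 and 3.69), and Ctsf is the only gene left of 0 (-0.87 and -0.26).

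Levels of different genes can be compared only per length, for which the deposited FPKM values (fragments scaled to gene length and sequencing depth) were used. The scaling used for CPM was not applied to them. Over all tested genes the median wild type log2 change was 0.09 with log2(FPKM + 1) and 0.22 with log2(FPKM + 0.1), against 0.01 in edgeR. In knockout aorta these medians were 0 and 0.01, against -0.03. Mean Ctsl, for example, went from 235 to 470 CPM but from 29.7 to 72.1 FPKM in wild type aorta. In knockout aorta it went from 278 to 528 CPM and from 38.3 to 72.6 FPKM. The sizes of the FPKM rises in the genotypes are therefore not set against each other here. Summed over the 10 genes, FPKM was 544 ± 85.0 (SD, n = 6) in wild type PBS aorta and 1360 ± 647 in treated wild type aorta, with medians of 552 and 1150. The highest treated wild type sum was that of F set replicate 1. The knockout sums were 590 ± 58.1 and 1040 ± 131. Sums ran from 440 to 652 under PBS and 868 to 2650 under treatment in wild type libraries, and from 506 to 658 and 866 to 1250 in knockout libraries, so that treated and PBS libraries did not overlap. Ctsd was the most abundant member in each group, with 45.7 ± 3.62% of the sum in wild type PBS aorta and 34.7 ± 3.37% under treatment, and 42.3 ± 2.93% and 33.6 ± 2.42% in knockout aorta. The share of Ctss went from 1.15 ± 0.424% to 15.8 ± 3.87% in wild type and from 1.51 ± 0.634% to 11.3 ± 4.02% in knockout aorta. Ctsb made up 19.9 ± 1.77% and 19.0 ± 1.18% in wild type aorta, and Ctsf made up 1.71 ± 0.191% before and 0.562 ± 0.323% after treatment.

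**Figure D3:**
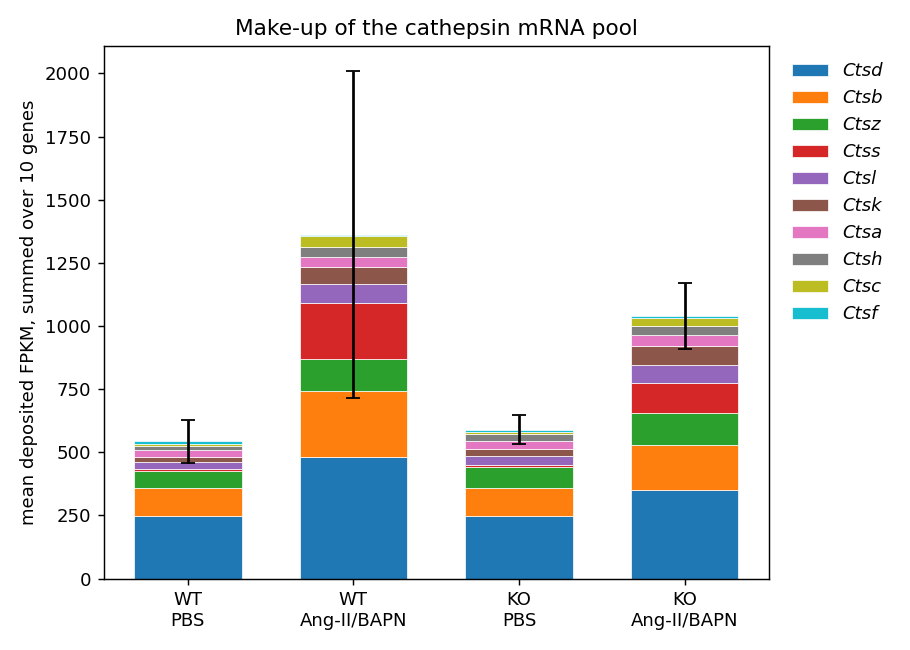
Mean deposited FPKM of the 10 cathepsin genes stacked by genotype and treatment (n = 6 libraries each), with a bar for the SD of the sum. The scaling used for CPM was not applied to these values. The sum is 544 and 590 under PBS and 1360 and 1040 under Ang-II/BAPN, and the red Ctss block is visible mainly in the treated groups.

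The comparison of genotypes asks whether loss of Cthrc1 altered cathepsin mRNA. No member was called between knockout and wild type aorta under PBS (0 of 10 in edgeR and in DESeq2, and 0 of 10 at an unadjusted p under 0.05), where edgeR called 0.0% of all genes. The targeted gene Cthrc1, whose levels did not overlap between the genotypes under PBS, was thus not called by edgeR either. A count of 0 in this comparison therefore does not show that cathepsin levels were the same. Log2 differences, knockout minus wild type, ran from -0.13 to 0.44. The largest was that of Ctsk, at 0.44 with a 95% interval of -0.12 to 1.0, and that of Ctss was 0.40 with an interval of -0.33 to 1.14.

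Under Ang-II/BAPN, again none of the 10 was called by edgeR or DESeq2, against 6.13% of all genes called by edgeR (4.26% higher and 1.87% lower in knockout aorta). That background of 1049 higher and 461 lower genes depended on the libraries fitted. With 1 library left out it was 371 to 1340 higher and 133 to 741 lower genes, the fewest higher genes (371, with 136 lower) being without F set replicate 1 of treated knockout aorta. It was 1806 and 1424 with DESeq2, 1 and 1 in the plain set alone, 31 and 5 in the F set alone, and 0 and 0 both in a fit of only the libraries compared and without the 7 libraries with high kidney tubule markers. At an unadjusted p under 0.05 there were 2, Ctss and Ctsf. Treated knockout libraries had Ctss at 69.9 to 244 CPM against 113 to 693 CPM in treated wild type libraries, a log2 difference of -0.81 (95% interval -1.54 to -0.08, adjusted p = 0.157, edgeR). The groups overlapped, with 3 of the 6 wild type libraries (693, 319 and 269 CPM) above every knockout library and 1 knockout library below every wild type library, and without F set replicate 1 of treated wild type aorta the difference was -0.43. Ctsf was 0.53 higher (95% interval 0.01 to 1.05, adjusted p = 0.194, edgeR), and 0.23 higher without F set replicate 1 of treated knockout aorta. For Ctsb the difference was -0.39 (95% interval -0.81 to 0.04), and -0.08 without F set replicate 1 of treated wild type aorta. Ctsk and Ctsl differed by 0.32 (95% interval -0.24 to 0.89) and 0.19 (95% interval -0.14 to 0.51).

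The difference between the responses of the genotypes (the interaction) was tested directly, and edgeR called none of the 10 members and 0.0% of all genes. DESeq2 called none of the 10 either. Ctss had the largest value, a response smaller in knockout aorta by a log2 difference of -1.22 (SE 0.50, 95% interval -2.25 to -0.18, unadjusted p = 0.0237, adjusted p = 0.3, edgeR), the only member at an unadjusted p under 0.05. Over the title sets it was -0.65 (SE 0.70) in the plain and -1.78 (SE 0.70) in the F set. The Ctsf value was 0.61 (95% interval -0.13 to 1.35), so that its call in wild type alone does not show a difference between the genotypes. The intervals of Ctsl, -0.52 to 0.40, and Ctsk, -0.91 to 0.68, are those of the response in knockout minus that in wild type aorta.

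Responses were also compared between the title sets, F minus plain, and edgeR called no member in either genotype, 0 at an unadjusted p under 0.05 as well, with 0.0% of all genes called. Within the plain set the wild type log2 fold changes were 4.33 for Ctss, 1.81 for Ctsc, 1.17 for Ctsk and 0.70 for Ctsl, and within the F set they were 5.47 for Ctss, 2.53 for Ctsc, 1.97 for Ctsk and 1.22 for Ctsl. In knockout aorta Ctss changed by 3.68 in the plain and 3.69 in the F set, while Ctsd had 0.15 and 0.77, Ctsa 0.12 and 0.67, and Ctsz 0.36 and 0.95. The log2 fold change was higher in the F set for 9 of 10 members in wild type (median difference 0.54, beside -0.02 over all genes) and 10 of 10 in knockout aorta (median 0.50, beside 0.04), although no single difference passed the test. Members share the same libraries and many vary together, so that these counts are not separate observations. In alternative analyses the wild type difference ran from 0.07 to 0.96 for Ctsb and 0.04 to 1.11 for Ctsc. That of Ctsd ran from -0.10 to 0.95 and that of Ctsh from -0.26 to 0.52. Of the wild type calls, Ctss and Ctsc passed in the plain set alone, and Ctss alone passed there in knockout aorta.

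In bulk tissue more cells of a type and more RNA per cell cannot be told apart, and markers of several cell types moved with treatment. Of all tested genes, 13.3% were called higher and 11.5% lower in wild type aorta, and 7.03% and 4.4% in knockout aorta. Of 12 macrophage markers 11 rose in each genotype (median log2 fold change 2.99 in wild type and 2.69 in knockout aorta), and their summed level went from 178 to 367 CPM under PBS to 1030 to 5290 CPM in wild type aorta, and from 226 to 453 CPM to 1090 to 2300 CPM in knockout aorta. All 8 smooth muscle markers fell in wild type and 5 of 8 in knockout aorta, with sums of 19900 to 28600 CPM against 1780 to 6390 CPM in wild type and 17000 to 36000 CPM against 7750 to 15000 CPM in knockout libraries. Between treated genotypes, 7 of the 8 smooth muscle markers were called higher in knockout aorta and no macrophage marker was called. In that comparison 4.26% of all genes were called higher and 1.87% lower. The count of 7 was 2 without F set replicate 1 of treated knockout aorta and 0 without the libraries with high kidney tubule markers, and the 5 that fell in knockout aorta were 0 without either the high-Rn7sk or the high-kidney libraries. Fibroblast markers rose for 4 of 8 genes in wild type and 7 of 8 in knockout aorta, from sums of 3590 to 14400 CPM to 14900 to 27300 CPM and from 7060 to 12000 CPM to 18000 to 33300 CPM. The knockout count of 7 was 4 without the high-Rn7sk and 3 without the high-kidney libraries. Every macrophage, smooth muscle and fibroblast marker had counts in PBS libraries. Their part in the cathepsin changes was not tested.

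Levels of the members were set beside these sums over the 24 libraries, as deviations of log2 CPM from the means of the 8 groups, which removes the treatment difference. These correlations share the libraries and their scaling and are given as descriptions. Ctss (r = 0.77), Ctsc (r = 0.72) and Ctsb (r = 0.70) varied most closely with the macrophage sum, and Ctsa least (r = 0.10). Ctsk varied with the fibroblast sum (r = 0.84) and less with the macrophage sum (r = 0.36). Ctsf varied with the smooth muscle sum (r = 0.56) and against the macrophage sum (r = -0.59). Ctss (r = -0.67) and Ctsc (r = -0.52) also ran against the smooth muscle sum. Ctsl (r = 0.52) and Ctsf (r = 0.42) varied with the fibroblast sum, so that these links are not particular to 1 cell type. With the sum of lysosomal genes other than cathepsins, r was 0.70 for Ctsb, 0.68 for Ctsl, 0.67 for Ctsd and 0.59 for Ctsh. It was 0.53 for Ctsz, 0.46 for Ctsa, 0.40 for Ctss and 0.30 for Ctsc. F set replicate 1 of treated wild type aorta had a macrophage sum of 5290 CPM, beside a group median of 1350 CPM. Its weight in these correlations was not tested.

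**Figure D4:**
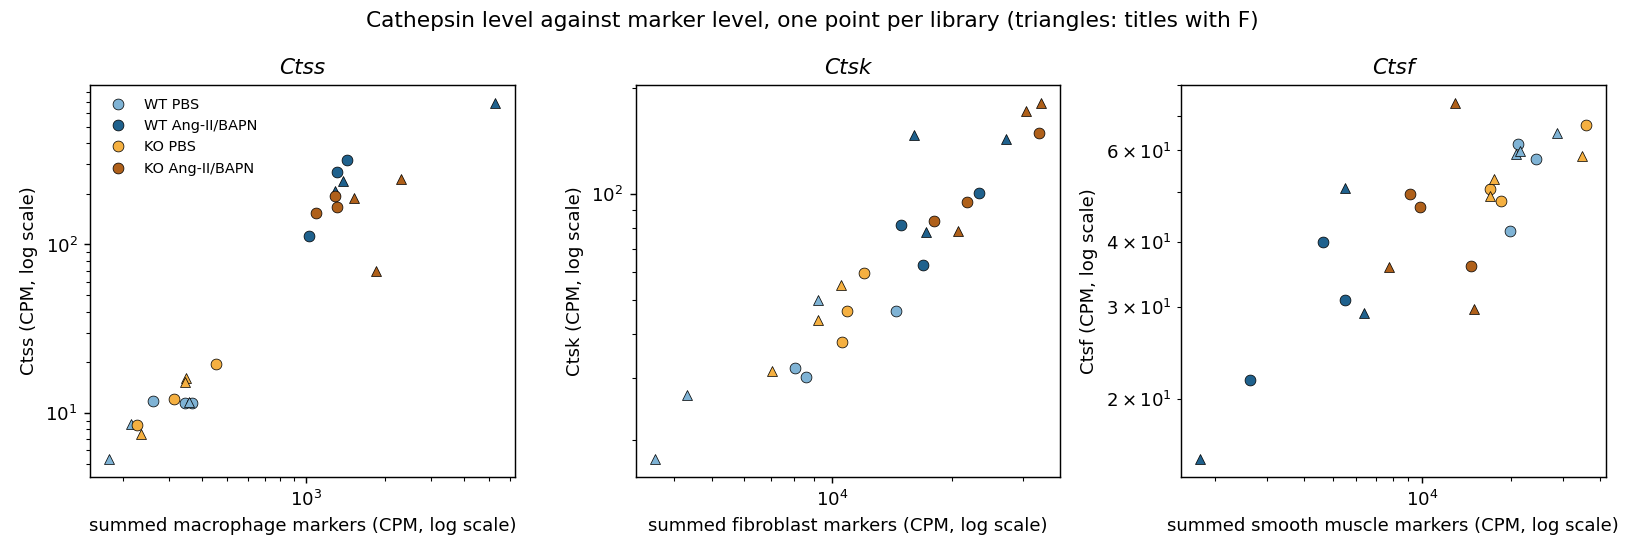
CPM of Ctss, Ctsk and Ctsf in each library against the summed CPM of macrophage, fibroblast and smooth muscle markers (both axes log), with colours for genotype and treatment and triangles for titles with F. The library at the upper right of the Ctss panel, with 693 CPM, is also the lowest of the Ctsf panel, with 15.3 CPM.

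Among themselves the members did not vary as 1 block. Of 45 pairs, 15 had a correlation of deviations above 0.5 and 3 below -0.5, over a range of -0.85 to 0.87. Ctsc and Ctss formed the closest pair (r = 0.87), and both ran against Ctsf (r = -0.85 and -0.81). Ctsd varied with Ctsb and with Ctsz (r = 0.86 each), Ctsa with Ctsz (r = 0.86) and with Ctsh (r = 0.84), and Ctsk with Ctsl (r = 0.72). Between Ctss and Ctsz r was -0.10.

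**Figure D5:**
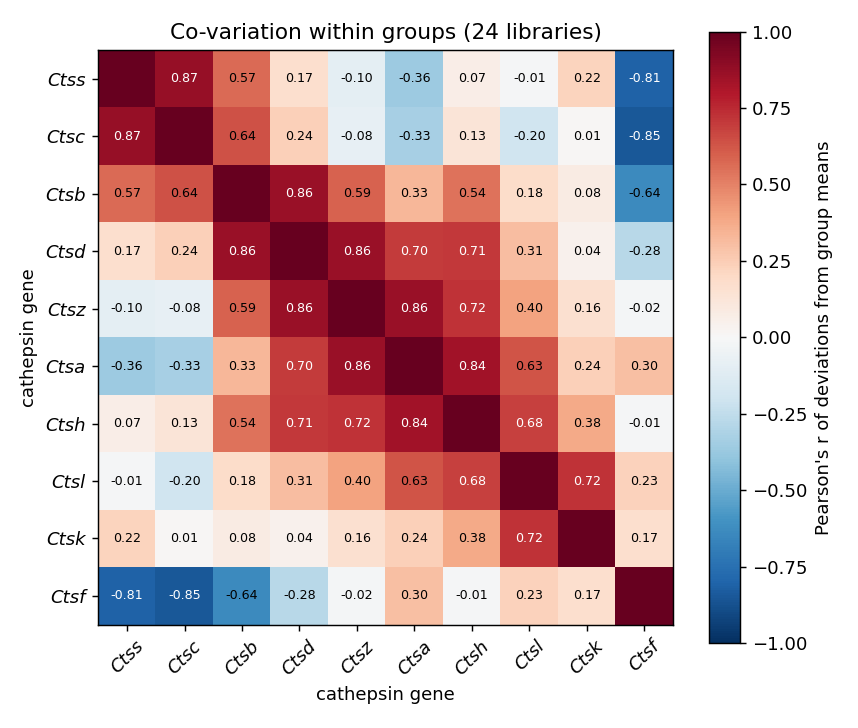
Pearson's r between cathepsin genes over 24 libraries, computed on deviations of log2 CPM from the means of the 8 groups, red for positive and blue for negative values. Ctss and Ctsc pair at 0.87, Ctsb, Ctsd, Ctsz, Ctsa and Ctsh form a red block, and Ctsf is blue against Ctss and Ctsc.

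The genes most like each member were named by the highest correlation of log2 CPM over the 24 libraries, among 11687 genes at a mean of at least 5 CPM, and this measure includes the treatment difference. For Ctss they were Nckap1l (0.990), a cytoskeletal regulator of blood cells, Mpeg1 (0.989), a pore-forming protein of macrophages, and Clec4a1 (0.987). For Ctsc they were Cd53 (0.979), a leukocyte tetraspanin, Fyb (0.976) and Fam111a (0.975). Ctsk was closest to Cmtm3 (0.950), Ppic (0.943) and Col1a1 (0.942), the collagen I gene, and Ctsl was close to C1qb (0.930) and C1qc (0.924), which encode complement subunits made by macrophages. For Ctsb the nearest was Il10rb (0.928), for Ctsd Cstb (0.903), the inhibitor cystatin B, and for Ctsz Hexa (0.938), a lysosomal hexosaminidase. Ctsh was nearest to Gpx7 (0.900), Ctsa to Ltbr (0.922) and Ctsf to Npr2 (0.936), the receptor of C-type natriuretic peptide.

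Inhibitors of cysteine proteases keep secreted cathepsins in check. Of 13 tested genes listed as inhibitors, 8 rose and none fell in wild type aorta (median log2 fold change 1.52, beside 0.01 over all genes). In knockout aorta 4 rose (median 0.56, beside -0.03). Of all genes, 13.3% were called higher in wild type and 7.03% in knockout aorta. The list is broader than the cystatins, and whether each gene inhibits the cathepsins described here was not tested. The 8 that rose in wild type aorta were Ahsg, Fetub, Kng1, Kng2, Ctla2a, Ctla2b, Serpinb6a and Serpinb9. No cystatin gene tested (Cst3, Cst6, Cst7, Cstb and Csta2) was called in wild type aorta, and Cst3 had -0.81 (adjusted p = 0.0925, edgeR). Summed over the tested genes, wild type levels were 921 ± 218 CPM under PBS and 900 ± 264 CPM under treatment. Knockout sums were 921 ± 187 and 1580 ± 1080 CPM. Ctla2a, an inhibitor of cathepsin L-like proteases, rose by 1.95 in wild type (SE 0.43, adjusted p = 0.00249, edgeR) and by 1.95 in knockout aorta (SE 0.43, adjusted p = 0.00508, edgeR). Kng2, a kininogen, rose by 1.70 in wild type aorta (SE 0.37, adjusted p = 0.00234, edgeR) and had 0.07 in knockout aorta. Ahsg, fetuin A, went from 4.25 ± 4.15 to 24.2 ± 14.8 CPM (SD, n = 6) in wild type aorta and was called lower in treated knockout than treated wild type aorta (-1.81, SE 0.51, adjusted p = 0.0422, edgeR). Cst3, cystatin C, named after its values were seen, was called higher there (1.57, SE 0.35, adjusted p = 0.0136, edgeR), and without F set replicate 1 of treated knockout aorta no inhibitor was called in either direction between the treated genotypes. Without the 7 libraries with high kidney tubule markers, 7 of 15 inhibitors rose in wild type and none in knockout aorta.

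Of 16 genes for maturation and lysosomal sorting, 5 rose and 2 fell in wild type aorta, and 2 rose and 1 fell in knockout aorta (medians 0.32 and 0.11, beside 0.01 and -0.03 over all genes). Over all genes 13.3% were called higher and 11.5% lower in wild type aorta, and 7.03% and 4.4% in knockout aorta. In wild type aorta 3 rose without F set replicate 1 of the treated group and 2 without the high-Rn7sk libraries. Lgmn, legumain, which cleaves cathepsin precursors, rose from 88.2 ± 18.0 to 384 ± 172 CPM in wild type (log2 fold change 2.09, SE 0.27, adjusted p = 1.52e-05, edgeR) and from 128 ± 61.2 to 251 ± 74.7 CPM in knockout aorta (1.0, SE 0.26, adjusted p = 0.0163, edgeR). Sort1, the sorting receptor sortilin, fell in both (-0.68, adjusted p = 0.00463, and -0.79, adjusted p = 0.00314, edgeR). Tfeb, a transcription factor of lysosomal genes, fell in wild type aorta (-1.01, SE 0.17, adjusted p = 0.000239, edgeR) and had -0.30 in knockout aorta, where it was not called.

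Lysosomal membrane proteins and hydrolases other than cathepsins rose for 15 of 22 genes in wild type and 8 of 22 in knockout aorta, and none fell. Their medians were 0.77 and 0.41, beside 0.01 and -0.03 over all genes, of which 13.3% and 7.03% were called higher. Man2b1, lysosomal α-mannosidase, rose by 1.0 in wild type (SE 0.14, adjusted p = 3.7e-05, edgeR) and by 0.87 in knockout aorta (SE 0.14, adjusted p = 0.000343, edgeR). Gusb, β-glucuronidase, rose by 1.0 in wild type (SE 0.16) and 1.0 in knockout aorta (SE 0.16), and Lipa, lysosomal acid lipase, by 1.34 in wild type aorta (SE 0.22, adjusted p = 0.000161, edgeR). The wild type count was 12 without F set replicate 1 of treated wild type aorta and 11 when the 5 high-Rn7sk libraries were dropped, and the knockout count 4 without those with high kidney tubule markers.

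Ctsk is a classical osteoclast gene, so that 10 osteoclast genes were followed beside it. In wild type aorta 5 rose (median 0.84) and in knockout aorta 2 (median 0.06), where 13.3% and 7.03% of all genes were called higher. Without F set replicate 1 of treated wild type aorta the wild type values were 4 and a median of 0.49, and without the high-Rn7sk libraries 3 rose and 2 fell with a median of 1.93. Mmp9, a gelatinase that neutrophils and macrophages make too, rose from 3.46 ± 2.72 to 48.1 ± 64.2 CPM in wild type (adjusted p = 0.000502, edgeR) and from 2.75 ± 1.06 to 16.5 ± 18.1 CPM in knockout aorta (adjusted p = 0.0257, edgeR). Ocstamp reached only 1.61 ± 1.43 CPM and Dcstamp, a fusion protein of osteoclasts, 0.706 ± 0.764 CPM in treated wild type aorta. Acp5 (0.41), Oscar (1.09), Itgb3 (-0.69), Tnfrsf11a (-0.48) and Calcr were not called in the wild type response. Summed over the list, levels were 228 ± 58.2 CPM under PBS and 268 ± 131 CPM under treatment in wild type aorta. The knockout sums were 243 ± 28.3 and 238 ± 70.8 CPM. Among the other cathepsins, 4 genes were tested, and 1 rose in wild type aorta, Ctsw, a protease of cytotoxic lymphocytes (0.799 ± 0.291 to 3.08 ± 1.97 CPM, log2 fold change 1.95, SE 0.52, adjusted p = 0.00946, edgeR). In knockout aorta Ctsw had 1.31 (adjusted p = 0.107, edgeR), and the 1 gene that rose was Ctsg (7.14, SE 2.07, adjusted p = 0.0462, edgeR). The wild type SE of Ctsg was 4484.96, so that its response there was not measured. Without the high-Rn7sk libraries 0 of the 4 rose in either genotype. Ctso had 36.0 ± 7.55 and 44.6 ± 7.60 CPM in wild type aorta and was not called.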

How the data were processed

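Total RNA of aorta was sequenced in 24 libraries with a stranded kit as paired ends, per the labels' protocols. The authors deposited whole-number counts and FPKM values per gene and library, per the file headers. HISAT2, StringTie, DESeq2 and build GRCm38 are named in the submitters' processing notes without versions. How reads were assigned, and how those of paralogs were split, is not given in the sources used here. The table holds 4 columns of 2 libraries not described by the labels, which were not used.

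The tests on counts used R 4.3.3 with edgeR 4.0.16, after filterByExpr (minimum count 10, minimum total 15) and TMM scaling, in a robust quasi-likelihood fit of 8 group means, with contrasts averaged over the title sets. Standard errors were derived from the F statistic. Library totals were 39002048 to 82040703 counts. Replicate pairs differed beyond sampling noise, with a chi-square per degree of freedom of at least 56.5. Correlations used log2 CPM with a prior count of 2. The test was also checked on simulated data.

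Members, gene lists and tests were chosen with earlier results of these data known. Named genes are all members, the 3 list genes with the smallest adjusted p in the wild type response, the 3 genes most like each member, and Cthrc1. Not every gene named by this rule is reported here. Some further list genes were named after their values were seen. Alternatives were RLE factors, DESeq2 1.42.0, limma 3.58.1 on log2(FPKM + 1) and log2(FPKM + 0.1), other filters, a replicate block, other terms for the title set, each title set alone, only the libraries compared, a minimum log2 fold change of 1, and the omission of every library in turn. Fits without libraries with high Rn7sk, kidney tubule or intestinal transcripts were chosen after seeing the data.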

Additional observations from a re-analysis of the deposited data

Results flagged for a closer look

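A library was listed here when it stood far from the other 5 of its genotype and treatment in a test for single outliers (Dixon's criterion at the 95% level). The 10 genes in 4 groups gave 40 tests and 9 such values, where chance alone gives about 1 in 20. Tests of the same library are not independent.

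F set replicate 1 of treated wild type aorta stood above its group for 6 cathepsins. It held Ctss at 693 CPM (next 319), Ctsb at 3310 CPM (next 1440), Ctsd at 2600 CPM (next 1050), Ctsh at 313 CPM (next 156), Ctsz at 343 CPM (next 190) and Ctsa at 322 CPM (next 201). The same library had the highest sum of macrophage markers in its group, 5290 CPM, and the lowest sum of smooth muscle markers, 1780 CPM. The part of these cells in the cathepsin levels was not tested.

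F set replicate 1 of treated knockout aorta stood above its group for Ctsa (434 CPM, next 207) and Ctsz (398 CPM, next 198). It had Rn7sk at 13.2 CPM. Plain set replicate 2 of wild type PBS aorta stood below its group for Ctsf, at 42.1 CPM (next 57.8).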

How the results depend on the processing

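Of 2620 alternative values of the members' log2 changes, 2423 kept their direction and their side of the threshold, 56 lost a call, 14 gained one, 127 changed sign where neither value was called, and 0 reversed a call. The 6 members called higher in wild type aorta became 2 in the plain set alone and 3 with a log2 fold change of at least 1, and 5 to 8 when 1 library was left out. They were 9 with limma on either FPKM scale, 7 with DESeq2 and 7 with no filter. The 1 member called lower became 0 in the plain set alone, in the F set alone, with limma on log2(FPKM + 1) and log2(FPKM + 0.1), without libraries with high Rn7sk, without those with high kidney tubule markers and with a log2 fold change of at least 1, and 0 to 1 when 1 library was left out. The 5 called higher in knockout aorta became 1 in the plain set alone, 3 without libraries with high kidney tubule markers, 3 with a log2 fold change of at least 1, and 4 to 6 when 1 library was left out. Apart from the smaller number of samples or the higher fold these settings impose, the cause was not tested. Counts of 0 between genotypes, in the interaction and between title sets were 0 in every alternative run. Replicate numbers did not pair the samples (r of deviations between PBS and treated libraries -0.32 to 0.27). With a replicate block, 6 members were called higher and 1 lower in the wild type and 4 higher in the knockout response. Over all genes, limma on log2(FPKM + 1) called 5090 higher and 1495 lower in the wild type response, against 3277 and 2820 in edgeR. With log2(FPKM + 0.1) the median of all genes was 0.22 in the wild type response and -0.23 in the interaction. DESeq2 called 68 genes higher and 20 lower between untreated genotypes and 252 and 347 in the interaction, where edgeR called none and 954 and 3132 genes had an unadjusted p under 0.05. The fit without intestinal transcripts covers the F set alone.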

Other observations

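Markers of other blood and vessel cells were measured beside the cathepsins. For these lists and those of the next paragraph, the shares of all genes were 13.3% higher and 11.5% lower in wild type aorta. In knockout aorta they were 7.03% and 4.4%. Of 8 neutrophil markers, 7 rose in each genotype, with summed levels of 1.56 to 12.7 CPM against 41.8 to 262 CPM in wild type and 1.99 to 4.35 CPM against 22.5 to 187 CPM in knockout aorta. Of 8 T and NK cell markers, 7 rose in wild type and 0 in knockout aorta, and of 6 B and plasma cell markers, 6 rose in wild type and 0 in knockout aorta. The wild type counts of 7 and 6 were 2 and 4 without F set replicate 1 of treated wild type aorta, and 2 and 2 without the libraries with high Rn7sk. No marker of these lists was called in the test of the difference between the responses. Endothelial markers fell for 4 of 6 genes in wild type and 5 of 6 in knockout aorta, and adipocyte markers for 2 of 6 and 3 of 6. Without the high-Rn7sk libraries the wild type counts were 1 endothelial and 1 adipocyte marker, and without those with high kidney tubule markers the knockout counts were 2 and 1.

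Intestinal markers rose for 6 of 8 genes in wild type aorta, with sums of 0.588 to 269 CPM in treated libraries, and 1 of 8 fell in knockout aorta. The wild type count was 2 without the high-Rn7sk and 3 without the high-kidney libraries. Kidney tubule markers ran from 4.62 to 2850 CPM over the 24 libraries, with 0 of 6 called in the wild type response and 2 of 6 lower in the knockout response, where 0 were called without F set replicate 1 of treated knockout aorta.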
